A study of Mus musculus with 14 samples.

Results

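The genes described here are Gm genes, loci that carry a numbered provisional symbol in the mouse annotation, whose transcripts were abundant in early 2-cell embryos and scarce in late 2-cell embryos. They were chosen by their measured levels in these libraries. A gene was kept when its level was at least 10 CPM (a gene's counts scaled to the total of its library) in all 4 early 2-cell libraries and when its mean over the late 2-cell WT and G&N libraries was at most 25% of its mean in the early 2-cell G&N libraries. Of 27726 genes with a Gm symbol, 371 reached the minimum level and 75 met both conditions. Of all 56923 genes in the count table, 5343 reached the minimum and 576 met both conditions, of which 501 had other symbols. The fall into the late WT and G&N libraries is therefore a property of the choice and is given below as a description. The levels in the late G&N-L, Lac-CoA and H3K18R libraries took no part in it.

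The libraries came from ICR mouse embryos, 5 embryos to a library, with 2 libraries in each of 7 groups. E2C denotes early 2-cell embryos collected 30 h after hCG, the hormone that triggers ovulation, and L2C late 2-cell embryos collected 54 h after hCG. G&N embryos were cultured with 5 μM Gne140, an inhibitor of the lactate dehydrogenases LDHA and LDHB, 50 μM NMN, a precursor of NAD+, and 10 mM lactate, and G&N-L embryos with the same additions but without lactate. G&N-L + Lac-CoA embryos were deprived of lactate in the same way and had been injected with 1 mM lactyl-CoA, the donor for lactylation of histones. H3K18R embryos had been injected with 200 ng/μL mRNA of histone H3 in which lysine 18 is replaced by arginine. L2C WT embryos are the group set against them, with mRNA of wild-type H3. Whether Gne140 and NMN were added, and the lactate level, are not stated for either group. No L2C library came from embryos without one of these treatments. The sample titles and the treatment labels do not match everywhere. The E2C G&N-L libraries are labelled with GNE140 and NMN and no mention of missing lactate, the E2C G&N libraries with GNE140 alone, and the Lac-CoA libraries with CoA, and the count columns of the H3K18R libraries read K18A. Groups follow the titles. Nothing says that the 2 libraries were separate litters, so p-values measure the spread between these libraries.

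An oocyte stores RNA that it transcribed while growing, and the early embryo lives on this store. After fertilization the stored RNA is cleared in steps, first by factors that the egg itself carries, such as the CCR4-NOT deadenylase and its adaptor BTG4, and later by factors that need transcription from the embryo's own genome. In the mouse that genome is activated in a minor wave in the zygote and early 2-cell embryo and in a major wave in the late 2-cell embryo. Long noncoding RNAs and transcribed pseudogenes are numerous in oocytes, where long terminal repeats often serve as promoters.

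Most of the 75 genes do not encode a protein. In GENCODE vM39, on the build of the counts (mm39, GRCm39), 74 of them had an entry and Gm47751 had none. Of these, 43 were lncRNA genes, 23 were pseudogenes, 5 were protein-coding and 3 were of the class TEC, loci that await experimental verification. Among the 23 pseudogenes, 18 were processed, that is, made from a copied mRNA. The share of lncRNA genes among the 296 Gm genes that reached the minimum level but did not meet the second condition was 51.4%, with 152 genes, and the share of pseudogenes was 32.4%. Among the 501 genes of other symbols that met both conditions, 94.4% were protein-coding. Of the 75 genes, 20 had a canonical transcript of a single exon. Exons of 37 genes overlapped exons of another gene, on the same strand for 13 and on the opposite strand for 29. The counting is not stated to use strand, so reads from the overlapping parts could belong to either gene.

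The 3′ ends of 8 of the lncRNAs are printed here, because signals near the 3′ end of an oocyte RNA are known to set its poly(A) tail and its stability, and because these genes carry the levels and differences described below. The first 4 are among the 10 of the 75 genes with the highest CPM in E2C G&N embryos. The other 4 are among those named below from comparisons between late groups. Each line holds the last 120 bases of the canonical transcript, 5′ to 3′, read from GENCODE vM39 transcripts on GRCm39. Capitals mark AATAAA, the poly(A) signal, and TTTTAT or TTTTAAT, the cytoplasmic polyadenylation element. The windows lie at chr15:90252528-90252647 on the plus strand (Gm36480), chr12:67705167-67705286 on the plus strand (Gm47432), chr17:88969834-88969953 on the minus strand (Gm50056), chr5:149834604-149834723 on the plus strand (Gm36241), chr10:118971048-118971167 on the minus strand (Gm34045), chr7:104562863-104562982 on the plus strand (Gm45272), chr12:6035438-6035557 on the plus strand (Gm32442) and chr10:25182211-25182330 on the plus strand (Gm40617).
Gm36480: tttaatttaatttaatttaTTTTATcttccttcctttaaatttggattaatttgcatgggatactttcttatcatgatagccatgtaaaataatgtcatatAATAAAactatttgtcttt
Gm47432: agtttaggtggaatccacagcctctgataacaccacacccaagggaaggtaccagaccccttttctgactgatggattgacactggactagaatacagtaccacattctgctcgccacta
Gm50056: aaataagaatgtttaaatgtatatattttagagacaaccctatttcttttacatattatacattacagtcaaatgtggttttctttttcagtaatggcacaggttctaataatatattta
Gm36241: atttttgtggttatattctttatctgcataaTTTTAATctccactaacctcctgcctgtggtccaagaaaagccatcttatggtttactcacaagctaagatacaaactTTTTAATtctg
Gm34045: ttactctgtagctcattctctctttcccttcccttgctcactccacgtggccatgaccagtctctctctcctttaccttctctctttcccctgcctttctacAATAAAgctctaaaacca
Gm45272: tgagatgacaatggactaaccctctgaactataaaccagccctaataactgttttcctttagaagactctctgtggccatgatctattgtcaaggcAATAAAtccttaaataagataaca
Gm32442: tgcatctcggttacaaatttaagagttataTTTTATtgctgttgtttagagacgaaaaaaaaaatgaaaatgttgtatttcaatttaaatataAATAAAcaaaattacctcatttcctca
Gm40617: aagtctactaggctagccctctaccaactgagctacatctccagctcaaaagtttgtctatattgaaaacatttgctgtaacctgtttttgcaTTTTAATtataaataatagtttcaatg

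Of 42 such windows, which leave out the lncRNA on chromosome 18, 16 held AATAAA on the transcript strand (38.1%), against 50% of 146 other Gm lncRNAs at the minimum level and 46.0% of 31826 lncRNAs of the annotation. TTTTAT or TTTTAAT was in 9 of 42 (21.4%), against 18.5% and 10.6%. ATTTA, the pentamer of AU-rich elements, which can overlap TTTTAT and is not in capitals, was in 8 of 42 (19.0%), against 17.1% and 17.0%. Gm36480 and Gm32442 held all of these motifs, and Gm47432 held none. The letters are a description of the annotated ends, and the ends used in these embryos were not measured.

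Library totals ran from 20350427 to 61275465 counts. The lowest count of any of the 75 genes in an early library was 258. A count of 0 in a late library allows up to 3 counts, or 0.0675 to 0.147 CPM in the late libraries, which covers counting error only. In each of the 4 early libraries and in both L2C G&N-L libraries none of the 75 genes was at 0, while 7 and 10 were at 0 in the WT libraries and 6 and 1 in the H3K18R libraries. The 2 H3K18R libraries stood apart from each other. In replicate 2 the summed level of the 75 genes was 2.70 times that of replicate 1, and 66 of the 75 genes were higher there. The summed level of a list of 20 maternal transcripts was 2.12 times as high. The Lac-CoA and WT libraries differed less, with ratios of replicate 2 to replicate 1 of 0.629 and 0.644, and in the other 4 groups the ratio was 0.984 to 1.20.

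In every late group the 75 genes took a smaller share of the library than in the early embryos, and the share was highest in the lactate-deprived group. They held 0.674% and 0.663% of the counts in E2C G&N and 0.781% and 0.789% in E2C G&N-L embryos. By the choice itself the share was low in L2C G&N, with 0.187% and 0.188%, and lowest in L2C WT, with 0.0768% and 0.0495%. In L2C G&N-L embryos it was 0.294% and 0.352%, both above every other late library. In G&N-L + Lac-CoA embryos it was 0.227% and 0.143%, which spans the G&N values. In H3K18R embryos it was 0.0715% and 0.193%, of which the first lies between the WT libraries and the second above the G&N libraries. Counts are shares of a library, so the loss of these RNAs and a gain of other RNA cannot be told apart, nor can fewer cells and less RNA per cell.

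**Figure D1:**
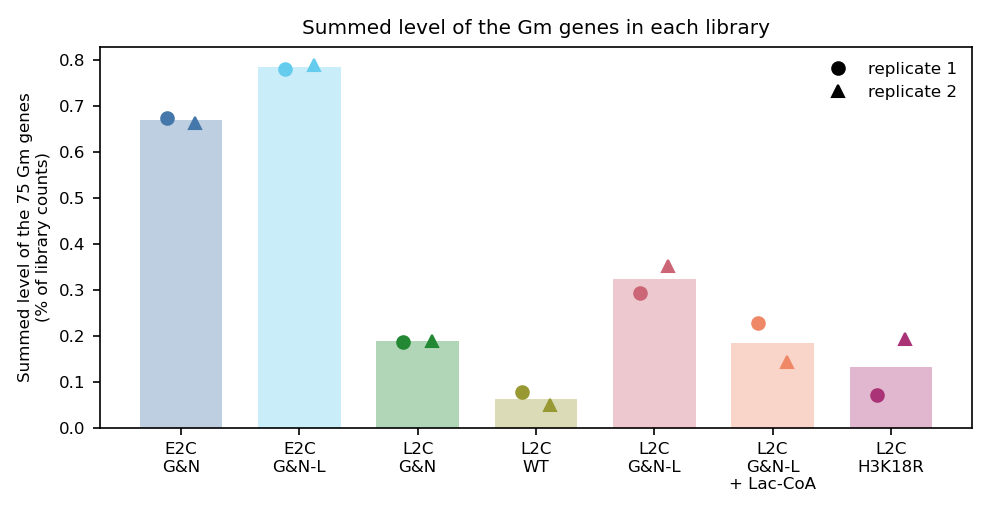
Summed level of the 75 Gm genes as a percentage of library counts, by group, with bars for the mean and a point for each of the 2 libraries. The L2C G&N-L libraries (0.294% and 0.352%) lie above all other late libraries, and the H3K18R libraries (0.0715% and 0.193%) lie far apart.

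The 10 genes with the highest CPM, a scale that also rises with transcript length, held 52.8% of the summed E2C G&N level. Gm5434, a transcribed processed pseudogene at chr12:36140378-36141828 that GENCODE vM39 now names Ube2frt, had 567 and 661 CPM in E2C G&N and 619 and 675 CPM in E2C G&N-L libraries. It stood at 143 and 162 CPM in L2C G&N, 59.2 and 46.0 in WT, 244 and 317 in G&N-L, 164 and 61.2 in Lac-CoA and 67.7 and 149 CPM in H3K18R libraries. Both G&N-L values were above all other late values of the gene. Gm36480, a lncRNA at chr15:90237909-90252647 with no overlapping gene, had 434 and 619 CPM in E2C G&N and 1004 and 766 CPM in E2C G&N-L libraries. In the late libraries it had 181 and 258 CPM in G&N, 52.1 and 17.4 in WT, 456 and 678 in G&N-L, 409 and 239 in Lac-CoA and 73.8 and 280 CPM in H3K18R. The late G&N-L values of Gm36480 overlapped its E2C G&N values, which was so for no other gene of the 10. They lay below its E2C G&N-L values, with a mean of 64.1% of that level.

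Gm47432, a lncRNA at chr12:67698147-67705286, and Gm50056, a lncRNA at chr17:88969834-88972193 that overlaps an exon of Ston1 on the opposite strand by 181 bases, followed. Gm47432 went from 483 and 378 CPM in E2C G&N to 158 and 151 CPM in L2C G&N and 27.0 and 22.2 CPM in WT, and had 237 and 260 CPM in G&N-L embryos. In Lac-CoA it had 192 and 61.5 CPM and in H3K18R 36.2 and 195 CPM, so both pairs spanned the G&N values. Gm50056 had 442 and 405 CPM in E2C G&N, 133 and 112 in L2C G&N, 71.6 and 35.05 in WT, 211 and 216 in G&N-L, 143 and 70.5 in Lac-CoA and 36.4 and 159 CPM in H3K18R libraries. The G&N-L values of both genes were the highest of their late values. Gm6201 (processed pseudogene), Gm19299, Gm42980, Gm16497 and Gm36241 (lncRNAs) completed this group, with E2C G&N means of 209 to 317 CPM and L2C G&N-L means of 81.2 to 149 CPM.

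Gm31579, a TEC locus at chr6:50886750-50887715 that lies wholly within exons of Gm67738 on the same strand, was the exception among the 10. It had 286 and 232 CPM in E2C G&N, 60.5 and 93.3 CPM in L2C G&N and 30.6 and 35.6 CPM in L2C G&N-L embryos. It was thus lower without lactate in both libraries. With Lac-CoA it had 50.1 and 63.4 CPM, and it had 19.4 and 29.1 CPM in WT and 11.6 and 38.2 CPM in H3K18R libraries. Per kilobase of exon, which allows genes to be compared, the E2C G&N level ran from 1.46 to 437 CPM per kb over the 74 annotated genes, with a median of 30.7. Gm36480 was the highest at 437, ahead of Gm5434 at 423 and Gm47432 at 386 CPM per kb.

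**Figure D2:**
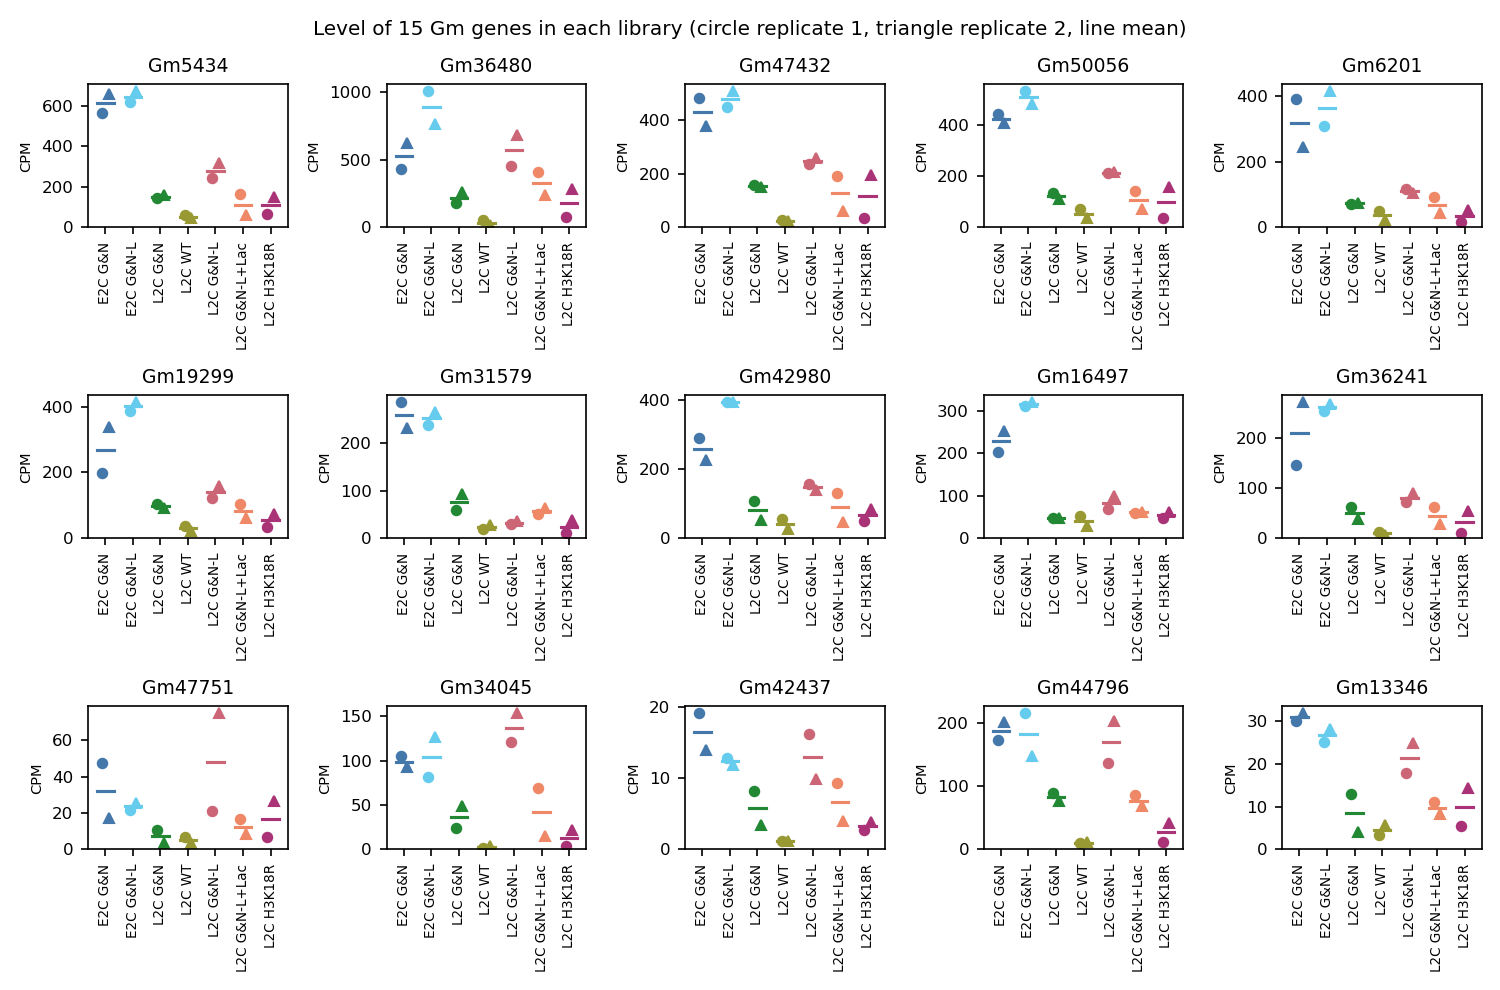
Level in CPM, from 0, of the 10 Gm genes with the highest E2C G&N level and of the 5 that kept the largest share of their E2C G&N-L level in L2C G&N-L embryos, in each of the 14 libraries, with lines for group means. In Gm34045 the G&N-L libraries (121 and 154 CPM) reach the early levels, and in Gm31579 they (30.6 and 35.6 CPM) lie below the G&N libraries.

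The 75 genes were then judged in the 3 late groups that the choice did not use, with a gene counted as cleared where its mean level was at most 25% of its E2C G&N mean. In L2C G&N-L embryos 20 of 75 genes were cleared, in Lac-CoA embryos 47 and in H3K18R embryos 59. Over all 5343 genes at the minimum level in early embryos, the shares cleared were 5.22%, 8.83% and 15.1%. Of the 501 genes of other symbols that met both conditions, 179, 287 and 426 were cleared. The median of the level left was 35.8% of the E2C G&N mean in G&N-L, 21.6% in Lac-CoA and 17.1% in H3K18R embryos, beside 24.2% in G&N and 7.12% in WT embryos, which the choice had used. In G&N and WT embryos 39 and 73 of the 75 genes were cleared. The choice had used both groups on the low side, so the 73 is no reference for the count in H3K18R embryos. The E2C G&N embryos were not injected, and no early library came from embryos injected with H3 mRNA or Lac-CoA. Culture with Gne140 and NMN is not stated for the H3K18R and WT embryos, so they may differ from E2C G&N embryos in that too. Against the E2C G&N-L mean, 23 genes were cleared in G&N-L and 53 in Lac-CoA embryos. Single libraries gave 19 and 20 cleared genes in G&N-L, 38 and 54 in Lac-CoA and 69 and 37 in H3K18R embryos. The scale mattered in the lactate-deprived group, where TMM-normalized levels, which correct for the composition of the library, gave 34 cleared genes in place of 20. The counts of 47 and 59 are on library totals, so 34 cannot be set beside them. TMM factors were 0.832 and 0.826 in E2C G&N libraries. They were 1.10 and 1.07 in G&N-L, 1.13 and 1.14 in Lac-CoA and 1.03 and 1.08 in H3K18R libraries, so TMM lowers the level left in each group.

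By gene, 18 of the 75 were cleared in all 3 of these groups and 12 in none. The 18 included the pseudogenes Gm6382, Gm12346, Gm5844, Gm8930 and Gm13597, near-identical copies of coding genes that are described below, and Gm31579. The most common pattern, in 25 genes, was a level above 25% in G&N-L embryos and clearance in both other groups. Gm5434 (45.7% left in G&N-L, 18.3% in Lac-CoA, 17.7% in H3K18R) and Gm36241 (38.9%, 21.6% and 15.9% left in the same order) were of this kind. A further 15 genes were cleared in H3K18R embryos only, among them Gm34045 (139% left in G&N-L, 42.9% in Lac-CoA, 13.2% in H3K18R) and Gm44796 (90.5%, 40.9% and 14.4% left). The 12 genes cleared in none of the 3 groups were led by Gm36480 (108%, 61.5% and 33.6% left), Gm47432 (57.8%, 29.4% and 26.9%), Gm42980 (57.8%, 35.1% and 26.0%), Gm48893 (57.5%, 28.1% and 26.2%) and the pseudogene Gm13041 (49.6%, 41.0% and 28.3%). In G&N-L embryos 3 of the 75 genes, Gm47751, Gm34045 and Gm36480, were above their E2C G&N mean. Of these, Gm36480 was below its E2C G&N-L mean, at 64.1%.

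**Figure D3:**
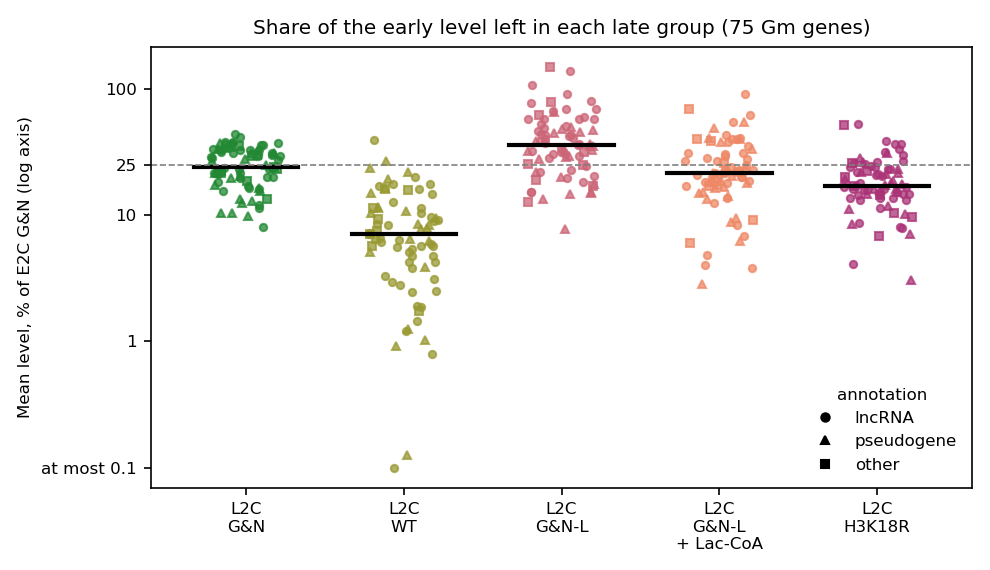
Mean level of each of the 75 Gm genes in the 5 late groups as a percentage of its E2C G&N mean, on a log axis, with the median as a black bar and a dashed line at 25%. The medians are 24.2% (G&N), 7.12% (WT), 35.8% (G&N-L), 21.6% (with Lac-CoA) and 17.1% (H3K18R).

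As a description without a test, the median level left was higher over lncRNA genes than over pseudogenes in G&N, G&N-L and Lac-CoA embryos. In WT and H3K18R embryos it was lower. In L2C G&N embryos, which the choice had used, it was 28.9% with 19 of 43 lncRNA genes cleared and 21.5% with 14 of 23 pseudogenes cleared. Over 43 lncRNA genes the median left in L2C G&N-L was 41.0%, with 8 genes cleared, and over 23 pseudogenes it was 32.2%, with 8 cleared. In Lac-CoA embryos the medians were 22.7% and 18.1%, in H3K18R embryos 16.9% and 17.3% and in WT embryos 5.73% and 8.57%. The 5 genes that kept the largest share of their E2C G&N-L level in L2C G&N-L embryos were Gm47751 (203%), Gm34045 (132%), Gm42437 (105%), Gm44796 (93.4%) and Gm13346 (80.4%). Gm34045, a lncRNA at chr10:118971046-119028563, had 105 and 92.7 CPM in E2C G&N, 23.9 and 48.4 in L2C G&N, 1.35 and 3.59 in WT and 121 and 154 CPM in G&N-L libraries. With Lac-CoA it had 69.3 and 15.5 CPM, below both G&N-L libraries. Gm44796, a lncRNA at chr7:23907019-23914149, had 136 and 204 CPM in L2C G&N-L and 85.8 and 68.1 CPM with Lac-CoA. The high mean of Gm47751 came from 1 library, with 21.2 and 74.98 CPM in the G&N-L pair.

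Of the 75 genes, Gm32442 (24.9% left over the late WT and G&N libraries together) and Gm44796 (24.9%) lay just inside the limit of the choice, and Gm31693 (25.03%) and Gm16551 (25.3%) just outside. Near the minimum level, Gm13491 (lowest early library at 10.1 CPM) and Gm21844 (10.2 CPM) lay inside and Gm4632 (9.73 CPM) and Gm28863 (9.67 CPM) outside.

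The study asked what lactate does for the 2-cell embryo as its genome is activated, and removal of lactate was compared at the late stage between L2C G&N-L and L2C G&N embryos. More of the 75 genes were higher without lactate than lower. The fitted log2 fold change, from edgeR's quasi-likelihood test across 19481 genes, was above 0 for 56 of 75 genes and below 0 for 19, with a median of 0.49 against -0.02 over all genes tested. The G&N-L libraries lay wholly above the G&N libraries for 36 genes and wholly below for 5. Under a nominal criterion, which asked for an absolute log2 fold change above 0.5 and p under 0.05 before adjustment, 16 of the 75 were higher and 1 lower. Over all genes tested 4.23% were higher and 7.63% lower by that criterion. Of the 501 genes of other symbols that met both conditions, 62 (12.4%) were higher and 5 lower, with a median of 0.45. No gene of the table passed an adjusted p under 0.05 (0.0%), of the 75 genes 17 had an unadjusted p under 0.05, and DESeq2 called 10 of the 75 at an adjusted p under 0.05. Since the choice used the L2C G&N libraries, these counts are a description.

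A choice that leaves out the L2C G&N libraries, with the late mean taken over L2C WT alone, is free of that limit. It gave 183 Gm genes, 73 of them among the 75. Of these, 36 (19.7%) were higher and 1 lower in G&N-L than in G&N embryos by the nominal criterion, with a median log2 fold change of 0.45 and 150 of 183 values above 0. The corresponding choice among other symbols gave 1121 genes, of which 134 (11.95%) were higher and 12 lower, with a median of 0.33.

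The genes with the smallest p among the 75 were Gm34045, with a log2 fold change of 1.88 ± 0.42 (SE, n = 2 and 2; edgeR, adjusted p = 0.313), Gm36480, with 1.34 ± 0.31 (adjusted p = 0.317), and Gm45272, with 1.15 ± 0.29 (adjusted p = 0.329). Gm45272, a lncRNA at chr7:104557961-104562982, had 56.8 and 75.01 CPM without lactate and 31.9 and 26.4 CPM with it. Of the 10 genes with the highest CPM, Gm5434, Gm36480, Gm47432, Gm50056, Gm6201 and Gm16497 were also higher by the nominal criterion, with log2 fold changes of 0.59 to 1.34. Gm31579 was the 1 gene that was lower, with a log2 fold change of -1.25 ± 0.33 (edgeR, adjusted p = 0.331). Gm34045 and Gm36480 met the nominal criterion with any 1 library left out, Gm45272 not without G&N-L replicate 2 and Gm31579 not without G&N replicate 2. Without G&N-L replicate 2 the counts over the 75 genes were 4 higher and 2 lower, and without G&N-L replicate 1 they were 10 and 1. By class, 12 of the 43 lncRNA genes and 3 of the 23 pseudogenes were higher, with median log2 fold changes of 0.70 and 0.33. The list of 20 maternal transcripts summed to 19553 and 22149 CPM in G&N-L and 15586 and 16132 CPM in G&N libraries, and 2 of its genes were higher and 1 lower by the nominal criterion. Without Btg4 the sums were 7432 and 9526 CPM against 7776 and 7680 CPM, which overlap. Over the whole list the fitted log2 fold changes had a median of 0.15.

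**Figure D4:**
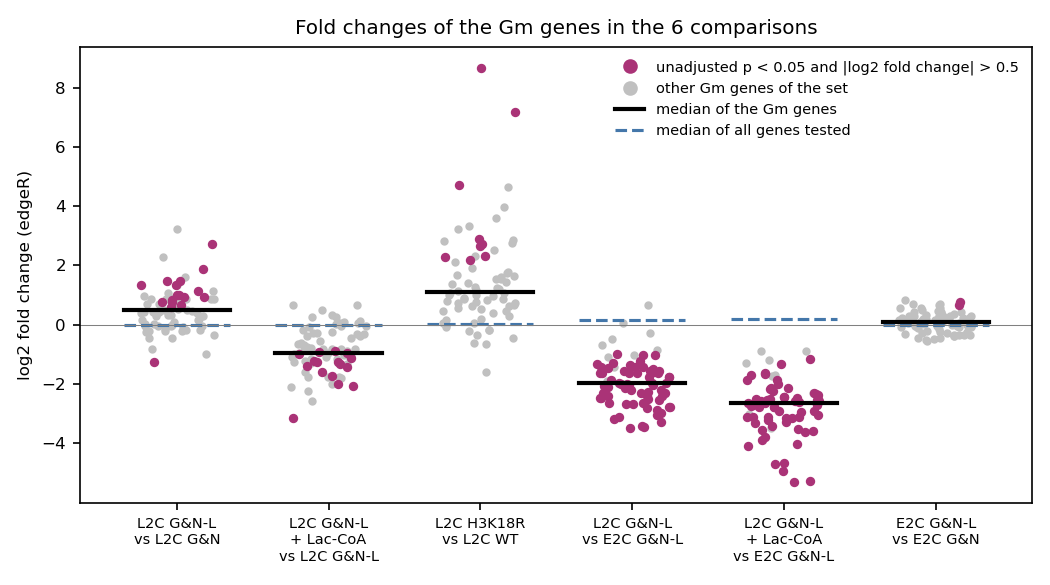
Fitted log2 fold change (edgeR) of each of the 75 Gm genes in the 6 comparisons, first group against second, with genes that met the nominal criterion in purple, the median of the Gm genes as a black bar and the median of all genes tested as a dashed line. The medians are 0.49, -0.95, 1.11, -1.97, -2.65 and 0.11 from left to right, where the third rests on 72 genes and on H3K18R replicate 2.

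Injection of Lac-CoA into lactate-deprived embryos was compared with lactate deprivation alone, a contrast that the choice of genes did not use. No injection is stated for the G&N-L embryos, so Lac-CoA and the injection itself cannot be told apart. Here 16 of the 75 genes were lower with Lac-CoA by the nominal criterion and 0 were higher, against 6.29% lower and 6.89% higher of all 19610 genes tested. The log2 fold change was below 0 for 64 of 75 genes, with a median of -0.95 against -0.01 over all genes tested. Of the 501 genes of other symbols, 102 were lower and 3 higher, with a median of -0.61. Of all 5343 genes at the minimum level in early embryos, 12.8% were lower and 6.49% higher, with a median of -0.22. Both Lac-CoA libraries lay below both G&N-L libraries for 45 of the 75 genes and above them for 2. No gene of the table passed an adjusted p under 0.05 (0.0%), 16 of the 75 genes had an unadjusted p under 0.05, and DESeq2 called 9 of them at an adjusted p under 0.05. This comparison shares its G&N-L libraries with the one before, so a library with high values would move both.

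Gm32442, a lncRNA at chr12:5858195-6035557, had the smallest p, with 44.7 and 58.6 CPM in G&N-L and 19.9 and 16.7 CPM in Lac-CoA libraries, a log2 fold change of -1.60 ± 0.32 (SE, n = 2 and 2; edgeR, adjusted p = 0.294). Gm45272 went to 30.5 and 30.4 CPM, a log2 fold change of -1.22 ± 0.28, and Gm44796 had one of -1.25 ± 0.29, both with an adjusted p of 0.294. The L2C G&N libraries, which are not part of this contrast, held 24.5 and 26.5 CPM of Gm32442, 31.9 and 26.4 CPM of Gm45272 and 89.2 and 76.6 CPM of Gm44796. Of the 10 genes with the highest CPM, Gm5434 (-1.42), Gm36480 (-0.91), Gm50056 (-1.11) and Gm19299 (-0.87) also met the criterion, and Gm47432 did not, with 192 and 61.5 CPM in the Lac-CoA pair. Gm5065, the protein-coding gene that GENCODE vM39 names Lgalsl2, had 51.5 and 46.3 CPM in G&N-L and 23.9 and 29.0 CPM with Lac-CoA. With 1 library left out in turn, the genes lower by the criterion numbered 7 to 24, with 10 without G&N-L replicate 1, 7 without G&N-L replicate 2, 24 without Lac-CoA replicate 1 and 12 without Lac-CoA replicate 2. The median was -1.31 without Lac-CoA replicate 1 and -0.57 without Lac-CoA replicate 2. The maternal list summed to 16781 and 12125 CPM with Lac-CoA, or 6653 and 5955 CPM without Btg4, and 5 of its 20 genes were lower and 0 higher by the nominal criterion.

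The H3K18R libraries were compared with L2C WT, whose values the choice had used on the low side. The counts over the 75 genes are therefore a description. After the filter on low counts 72 of the 75 genes were tested, and 9 were higher and 0 lower by the nominal criterion, against 3.77% and 2.67% of all 17704 genes. The 9 include Gm17821, Gm16144 and Gm40617, which passed the filter through the H3K18R libraries. The median log2 fold change was 1.11 against 0.03 over all genes, and 62 of 72 values were above 0. Of the 501 genes of other symbols that met both conditions, 495 were tested. Of these, 39 (7.88%) were higher and 0 lower, with a median of 0.63. At an adjusted p under 0.05, 1 gene of the table passed (0.00565%) and none of the 72, of which 9 had an unadjusted p under 0.05, while DESeq2 called 2. This result rested on replicate 2. Without it, 1 gene was higher and 1 lower, with a median of 0.23, and without replicate 1, 25 genes were higher and 0 lower, with a median of 1.58. Without WT replicate 1 or 2, 12 genes were higher and 0 lower in each case, with medians of 1.44 and 1.23. A choice without the WT libraries gave 42 Gm genes, 39 of them among the 75. Of the 39 genes of this choice that could be tested, 3 were higher and 0 lower, with a median of 0.86. The sum of the maternal list was 4715 and 9978 CPM in the H3K18R and 4498 and 4234 CPM in the WT libraries, or 3328 and 5829 CPM against 3153 and 2915 CPM without Btg4, and its part in the result was not tested.

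Gm17821, Gm16144 and Gm40617 were close to absent in WT embryos. Since the choice favoured low WT levels and these genes passed the filter on low counts through the H3K18R libraries, their values are a description without a test. Gm17821, a processed pseudogene at chr12:67705301-67716050, next to Gm47432 on the other strand, had 3 and 0 counts in the WT libraries and 5.36 and 14.4 CPM in H3K18R libraries. Gm16144, a lncRNA at chr9:69384311-69386880, had no count in WT and 2.31 and 1.98 CPM in H3K18R libraries, at least 18.7-fold higher than 3 counts per library. Gm40617, a lncRNA at chr10:25174507-25182330, had 0.0450 and 0.2499 CPM in WT and 2.41 and 6.17 CPM in H3K18R libraries, from 1 and 8 against 49 and 131 counts. The H3K18R libraries overlapped those of L2C G&N, which had 3.92 and 1.93 CPM of Gm16144 and 4.16 and 4.54 CPM of Gm40617. Exons of both genes overlap a coding gene on the opposite strand, by 98 bases of Anxa2 and 47 bases of Akap7.

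The fall from the early to the late stage was also fitted within lactate-deprived embryos, between L2C G&N-L and E2C G&N-L. The choice had used these early libraries through the minimum level. It had also asked for a fall from E2C G&N to the late G&N and WT libraries, so the counts over the 75 genes are a description. At an adjusted p under 0.05, 43 of the 75 genes were lower and 0 higher, against 5.87% lower of all 18604 genes tested. Of the 501 genes of other symbols that met both conditions, 324 were lower by the same threshold, and of all 5343 genes at the minimum level 1038 were. By the nominal criterion 65 of the 75 were lower. The median log2 fold change was -1.97 against 0.15 over all genes, and both late libraries lay below both early libraries for 70 of the 75. Gm31579 had a log2 fold change of -3.29 ± 0.19 (SE, n = 2 and 2; edgeR, adjusted p = 0.00489), Gm5065 of -2.29 ± 0.18 (adjusted p = 0.00609) and Gm42980, a lncRNA at chr5:127655513-127670507, of -1.77 ± 0.16 (adjusted p = 0.0078). Gm36480, at -1.01 ± 0.27 (edgeR, adjusted p = 0.0710), did not pass. Of the 75 genes, 2 had a fitted value above 0, Gm47751 and Gm34045. Without L2C G&N-L replicate 1 or 2, 9 and 19 genes passed the adjusted threshold, and without E2C G&N-L replicate 1 or 2, 23 and 26 did.

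With Lac-CoA the same contrast was made against the same E2C G&N-L libraries, and it is a description for the same reason. No injection is stated for the E2C G&N-L embryos. At an adjusted p under 0.05, 57 of 75 genes were lower and 0 higher, against 8.22% lower of all 18866 genes. Of the 501 genes of other symbols 371 were lower, and of the 5343 genes 1369 were. The median was -2.65 against 0.20 over all genes, and all 75 fitted values were below 0. Gm16497, a lncRNA at chr12:14201606-14484278, had a log2 fold change of -2.76 ± 0.18 (SE, n = 2 and 2; edgeR, adjusted p = 0.0047), Gm5065 of -3.22 ± 0.22 (adjusted p = 0.0048) and Gm5165, a lncRNA at chr17:17455115-17486611, of -2.91 ± 0.21 (adjusted p = 0.0048). Without E2C G&N-L replicate 1 or 2, 16 and 20 genes passed, and without Lac-CoA replicate 1 or 2, 40 and 29. Both medians over all genes depend on the scaling. With library totals in place of TMM they were 0.51 and 0.61, and the medians of the 75 genes -1.60 and -2.25, so that the distance between the Gm genes and all genes, -2.11 in the first contrast and -2.86 in the second, stayed within 0.01 of the TMM value. The share of nominal calls that were higher, over all genes, went from 59.0% to 72.8% in the first and from 59.4% to 71.8% in the second.

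Few of the 75 genes met the nominal criterion between G&N-L and G&N embryos at the early stage. The median log2 fold change was 0.11 against -0.01 over all 17343 genes tested, and 45 of 75 values were above 0. By the nominal criterion 2 genes were higher and 0 lower, against 1.82% and 2.69% of all genes, no gene of the table passed an adjusted p under 0.05 (0.0%), 2 of the 75 had an unadjusted p under 0.05, and DESeq2 called 0 of the 75. The 2 genes were Gm42980, with 392 and 394 CPM in G&N-L and 288 and 226 CPM in G&N libraries and a log2 fold change of 0.65 ± 0.18 (SE, n = 2 and 2; edgeR, adjusted p = 0.9999), and Gm36480, with 0.76 ± 0.30 at the same adjusted p. Neither gene met the criterion once either E2C G&N-L library was left out, nor Gm36480 without E2C G&N replicate 1, and without E2C G&N replicate 2 the counts were 8 higher and 2 lower. The choice used the E2C G&N mean. With E2C G&N-L in its place 90 Gm genes were chosen, 69 of them among the 75, and 8 were higher and 0 lower. That choice itself favours high E2C G&N-L values, so these counts are a description too.

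For 9 of the 23 pseudogenes the counts are uncertain, since their canonical transcript was at least 95% identical to that of a coding gene over at least 50% of its length, and how reads that fit both were counted is not stated. Gm12346 (99.5%) and Gm5844 (98.5%) matched Hsp90aa1, a chaperone gene, Gm6382 (97.1%) matched Rbbp7, a histone-binding subunit of chromatin complexes, Gm8930 (97.5%) Pcgf1, a Polycomb subunit, and Gm13597 (100%) Tax1bp3. Each of these coding genes was abundant early, from 112 CPM for Tax1bp3 to 4354 CPM for Rbbp7, and had 13.6% to 17.1% of its E2C G&N level in L2C G&N-L embryos, where the pseudogenes had 7.80% to 17.7%. Gm21399 (98.3%, Prdx1) and Gm7049 (98.4%, Me1) had 45.0% and 29.6% there, and their coding genes 42.9% and 28.2%. Gm12079 (99.2%) differed from its coding gene Strn, which had 157% there, while none of the 9 pseudogenes had more than 45.0%. Gm10054 (98.6%) also differed from its coding gene, the ribosomal protein gene Rps23. Rps23 had 7.03 CPM early and 703% of that in L2C G&N-L embryos, where Gm10054 had 27.9% of its early level. The pseudogenes with the highest CPM were less alike, with Gm5434 92.9% identical to Ube2f, at 17.4 CPM early, and Gm6201 93.7% identical to Lcp1, at 7.04 CPM early. Without the 9 genes the counts by the nominal criterion were the same, with 16 higher and 1 lower when lactate was removed and 16 lower with Lac-CoA, and 15 of 66 genes were cleared in G&N-L embryos.

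The 5 protein-coding members were Gm45871, Gm5065, Gm4924, Gm527 and Gm4981, of which 2, 3 and 4 were cleared in G&N-L, Lac-CoA and H3K18R embryos. Gm5065, at chr7:5353536-5363681, had 159 and 149 CPM in E2C G&N, 31.7 and 39.2 in L2C G&N and 51.5 and 46.3 CPM in L2C G&N-L libraries. Gm527 had 23.7 and 30.2 CPM in L2C G&N-L, 21.0 and 38.8 CPM with Lac-CoA and 17.8 and 3.15 CPM in G&N libraries, which did not overlap the first pair. Gm4981 is Duxf4 in GENCODE vM39, a relative of Dux, a homeobox gene known to be transcribed from the embryo's genome in the first wave. It had 28.2 and 23.3 CPM in E2C G&N and 8.01 and 1.79 CPM in L2C G&N-L libraries. No oocyte or zygote was among the libraries used here, so maternal origin was not measured for any of the 75 genes.

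Lists of coding genes were measured beside them. Of the 20 maternal transcripts, 17 reached 10 CPM in early embryos and 5 met both conditions of the choice (H1f8, Zar1, Pabpn1l, Nlrp5 and Ooep). Between the early and late stage without lactate 7 of the 20 were lower and 0 higher at an adjusted p under 0.05, and with Lac-CoA 10 were lower and 0 higher. Of 32 genes for factors of maternal mRNA decay, among them Btg4, CCR4-NOT subunits and decapping enzymes, 30 were tested in the first of these contrasts, with 3 higher and 3 lower at an adjusted p under 0.05. In the late contrast of G&N-L with G&N, 1 (Btg4) was higher and 1 (Ythdf2, a reader of methylated adenosine in mRNA) was lower by the nominal criterion, and with Lac-CoA 2 (Ythdf2 and Cnot10) were higher and 4 lower. Btg4 had 12122 and 12622 CPM in L2C G&N-L, 7810 and 8452 in G&N, 10128 and 6170 in Lac-CoA, 1345 and 1319 in WT and 1387 and 4148 CPM in H3K18R libraries. As with the summed 75 genes, the G&N-L group was highest and the WT group lowest. The 6 markers of major activation summed to 796 and 950 CPM in G&N-L and 1261 and 1598 CPM in L2C G&N libraries. Between these groups 4 of them were lower by the nominal criterion. Of 16 markers of minor activation 2 were higher and 2 lower of 15 tested. Only 2 of the 16 reached 10 CPM in early embryos. In L2C against E2C G&N-L 14 of 15 tested were higher by the nominal criterion, so the list did not mark the early stage here.

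Markers of other cells that could enter the samples were low. A list of 15 cumulus cell genes summed to 12.01 to 42.0 CPM and 5 sperm genes to 2.75 to 18.5 CPM over the 14 libraries. In G&N-L against G&N, 3 cumulus genes of 7 tested were lower and 0 higher, and 0 of 2 sperm genes tested differed by the nominal criterion. The 3 haemoglobin genes were at most 0.359 CPM in sum in early libraries and 17.6 to 73.8 CPM in late libraries. This sum came from Hba-a1 alone, since Hbb-bs and Hbb-bt were at 0 CPM in every group. The part of these markers in the results was not tested.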

How the data were processed

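RNA-seq libraries of 2-cell embryos were analysed, 2 in each of 7 groups. The authors trimmed reads with Trim Galore, used HISAT2 for alignment to mm39 and featureCounts for the raw counts, which were deposited in 1 table. Tool versions, strand setting and treatment of reads that fit several genes are not given in the sources used here, and DESeq2 is also named in the submitters' processing notes. Library totals were 20350427 to 61275465 counts.

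CPM was computed from column totals over all genes. Differences were fitted with edgeR 4.0.16 (R 4.3.3; quasi-likelihood test, TMM, filterByExpr, only the 4 libraries of a comparison, Benjamini-Hochberg over all genes tested, prior count 0.125), with DESeq2 1.42.0 as an alternative. The scripts were tested on simulated data. No exact test was run on single values, since with 2 libraries on each side its p is at least 0.333. Genes were annotated with GENCODE vM39 and compared with coding transcripts by BLAST 2.17.0. The alternative that leaves out near-identical copies was chosen after the data were seen.

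Members and lists (maternal transcripts, decay factors, minor and major activation, cumulus, sperm and haemoglobin genes) were chosen with earlier results of these data known. Named were the 10 genes highest in E2C G&N, the 5 with the most left in L2C G&N-L relative to E2C G&N-L, those with the smallest p in each comparison, those nearest the limits of the choice, and the 5 most abundant cleared in none of the 3 groups. Other genes, among them near-identical and protein-coding members, were named after their values were seen.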

Additional observations from a re-analysis of the deposited data

Results flagged for a closer look

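The effect of removing lactate had opposite directions at the 2 stages for 2 of the named genes, with no overlap of libraries at either stage. Gm13346, a lncRNA, had a log2 fold change of 1.33 at the late stage, with 17.9 and 24.9 CPM in G&N-L and 13.0 and 3.96 CPM in G&N embryos, and of -0.19 at the early stage, with 25.2 and 28.1 CPM in G&N-L and 29.9 and 31.96 CPM in G&N embryos. Its exons overlap those of Gm13347 on the opposite strand. Gm42437, of the class TEC, had a log2 fold change of 1.15 at the late stage, with 16.3 and 9.84 CPM against 8.23 and 3.397 CPM, and of -0.37 at the early stage, with 12.8 and 11.9 CPM against 19.2 and 13.9 CPM. None of these 4 differences met the nominal criterion, and the difference between the stages was not tested. With 2 libraries a group, single libraries could not be checked for standing apart by the rule used for larger groups.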

How the results depend on the processing

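With 2 libraries a group, a single library could move a count by more than 1.5 times. With 1 library left out in turn, the genes that met the nominal criterion numbered 6 to 17 (main value 17) in L2C G&N-L against G&N, 9 to 24 (16) with Lac-CoA, 2 to 25 (9) in H3K18R against WT and 0 to 10 (2) at the early stage, those past the adjusted threshold between stages 9 to 26 (43) without lactate and 16 to 40 (57) with Lac-CoA, and those cleared in H3K18R embryos 37 to 69 (59). One fit over all 14 libraries gave 8, 26, 41 (65) and 0 genes in L2C G&N-L against G&N, H3K18R against WT, L2C against E2C G&N-L and the early contrast, with 21 past the adjusted threshold in L2C against E2C G&N-L and 1 in H3K18R against WT. DESeq2 called 10, 9 and 2 genes at an adjusted p under 0.05 in the 3 late contrasts, where edgeR called 0, and 16 in H3K18R against WT by the nominal criterion. Without the filter on low counts 3 genes passed the adjusted threshold in L2C G&N-L against G&N and 3 in H3K18R against WT, where 20 met the nominal criterion, and 4 met it at the early stage. A minimum of 10 counts in every library gave 1 gene past the adjusted threshold in L2C G&N-L against G&N. DESeq2's size factors gave 1 gene at the early stage.

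Other choices of genes gave 37 of 183 genes (without L2C G&N), 3 of 39 (without WT) and 8 of 90 (with E2C G&N-L) in the contrasts that used those libraries. The last of these choices itself favours high E2C G&N-L values. Clearance in G&N-L embryos was 34 of 75 with TMM-normalized levels, 56 at a limit of 50% and 1 at 12.5%, where Lac-CoA gave 11 and H3K18R 14. With a limit of 12.5% in the choice 8, 15 and 17 of 18 genes were cleared in G&N-L, Lac-CoA and H3K18R embryos, and with a minimum of 20 CPM 8, 25 and 36 of 43. The replicate block gave 13, 17, 12, 65, 66 and 1 genes by the nominal criterion in the 6 contrasts, and it changed the count by over 1.5 times at the early stage alone. Same-numbered libraries did not deviate together, with correlations of -0.17 to -0.01 over 9917 genes, so the numbers were not taken to pair the samples. Of 195 results for single named genes, 180 kept direction and side of the threshold, 15 lost the threshold and 0 changed sign. The cause of these shifts was not tested. A count of 0 in a late library allows up to 0.147 CPM.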
